A study of Homo sapiens with 13 samples.

Results

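The expressed long intergenic noncoding RNAs (LINC RNAs) of 2 small cell lung cancer (SCLC) lines were compared with and without FHD-286. Members were the genes whose symbol is LINC followed by a number and whose mean level over the 3 untreated libraries was at least 2 TPM (a level corrected for gene length and scaled to the same total in every library) in H82 or in H146. Of 140 such symbols among 56831 listed genes, 30 reached that level, of which 14 did so in H82 alone, 6 in H146 alone and 10 in both lines. The members were thus chosen by their untreated levels, which are given as a description without a test, and the responses below share those untreated libraries with the rule. Just inside the threshold were LINC00165 (2.04 TPM), LINC01144 (2.24 TPM) and LINC00476 (2.26 TPM), and just outside were LINC00334 (1.77 TPM), LINC00908 (1.76 TPM) and LINC00261 (1.66 TPM).

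H82 and H146 are established human SCLC lines, both labelled wild type, and no further allele is given. The treated cells received FHD-286, an inhibitor of the ATPases SMARCA2 and SMARCA4 of the SWI/SNF chromatin remodeling complex, at 100 nM for 14 days with regular renewal of the drug, whereas the untreated cells are labelled as receiving no treatment and no vehicle is named. Total RNA was sequenced from 3 untreated and 3 treated H82 libraries and from 3 untreated and 4 treated H146 libraries. Nothing in the labels says that the libraries of a group came from separate cultures, so the p-values measure only the spread between these libraries, which may be technical. Since these are bulk samples, fewer cells of a kind and less RNA per cell cannot be told apart.

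LINC RNAs are spliced or unspliced RNA polymerase II transcripts from loci outside annotated coding genes, and most are made at low levels and in few cell types. Some act in the nucleus on nearby genes, some bind proteins or microRNAs, some serve as hosts of small RNAs, and a few were later found to encode small proteins. Their start sites often lie beside those of coding genes or at enhancers, both of which are opened by SWI/SNF complexes in many cell types. For most of the 30 members no function is established, and a role is given below only where one is well known.

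Markers of the lines were checked first. NEUROD1, the transcription factor that defines the H82 subtype, was at 224 to 234 TPM in untreated H82, at 48.0 to 112 TPM in treated H82 and below 1 TPM in every H146 library, and the sum of 8 neuroendocrine markers was 1349 to 1438 TPM in untreated and 1176 to 1524 TPM in treated H82, and 4156 to 4598 and 3027 to 3565 TPM in H146. The sum hides opposite changes in H82, where NEUROD1 (log2 fold change -1.53), SYP (-2.13), CHGA (-2.36), STMN2 (-3.64) and ENO2 (-1.09) were called lower and UCHL1 (1.11) and INSM1 (2.19) higher, while in H146 INSM1, UCHL1 and ENO2 were lower. Of 4 markers of the low neuroendocrine state, VIM (mean 7.49 and 43.9 TPM), HES1 (1.78 and 6.75 TPM) and YAP1 (0.566 and 2.34 TPM) were higher in treated H82. REST was not called there. In H146 HES1 and VIM were higher, and YAP1 and REST were not tested. YAP1 in untreated H82 and VIM in untreated H146 were below 1 TPM. Markers of fibroblasts, leukocytes and endothelium (8 genes) summed to at most 28.4 TPM in any library. Of these, COL1A2 was higher with treatment in both lines (mean 0.219 and 4.62 TPM in H82, and 2.78 and 9.77 TPM in H146, limma adjusted p = 0.000429), and in H82 DCN was higher (0.123 and 1.49 TPM). The part of these markers in the levels of the LINC RNAs was not tested. Between 15554 and 16633 genes reached 1 TPM in treated H82, against 21227 to 21772 without treatment, and in H146 the ranges were 18778 to 19309 and 17476 to 17965. Treated replicate 2 of H82 stood apart by INSM1, a neuroendocrine transcription factor. The gene was at 296 TPM there, against 32.1 and 33.9 TPM in treated replicates 1 and 3. Named calls lost without treated replicate 2 are said beside their values. Over all genes tested in H82, however, treated replicate 1 was the least alike, at r = 0.946 and 0.952 with replicates 2 and 3. Those 2 gave r = 0.978 with each other. Leaving out treated replicate 1 lost no H82 call of a member. Read numbers are not part of the values, so the depth is unknown and no counting interval is given. RN7SK, an abundant small nuclear RNA, was listed at 0 in every library, so a gene listed at 0 may not be absent.

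The LINC RNAs used by each line differed (the plot of level per library). In untreated H82 the highest mean was that of LINC00997 (24.5 TPM), followed by LINC00338 (19.9 TPM), LINC00205 (15.8 TPM), LINC00294 (13.9 TPM) and LINC00467 (10.6 TPM). LINC00997 did not overlap the next in that order, at 23.5 to 26.2 TPM against 18.8 to 20.5 TPM for LINC00338, whereas LINC00205 (13.7 to 17.1 TPM) and LINC00294 (12.7 to 16.1 TPM) overlapped. In untreated H146 a single transcript dominated. LINC00511, a multi-exon RNA studied as a growth-promoting transcript in carcinomas, was at 64.2, 67.1 and 57.7 TPM there and took 33.9% to 38.4% of the summed level of all 30 members. In untreated H82 the same RNA was at 0.391 TPM or less. After it came LINC00493 (15.8 TPM), LINC01012 (13.9 TPM), LINC00467 (12.2 TPM) and LINC00471 (11.9 TPM), of which the first 2 overlapped (13.1 to 18 and 13.3 to 14.9 TPM) and so did the last 2 (10.5 to 13.2 and 10.6 to 13.1 TPM). LINC00165, LINC00216, LINC00896 and LINC00934 were listed at 0 in all 3 untreated H146 libraries. LINC00467, which MYCN represses in neuroblastoma, and LINC00471 were among the higher members in both lines.

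**Figure D1:**
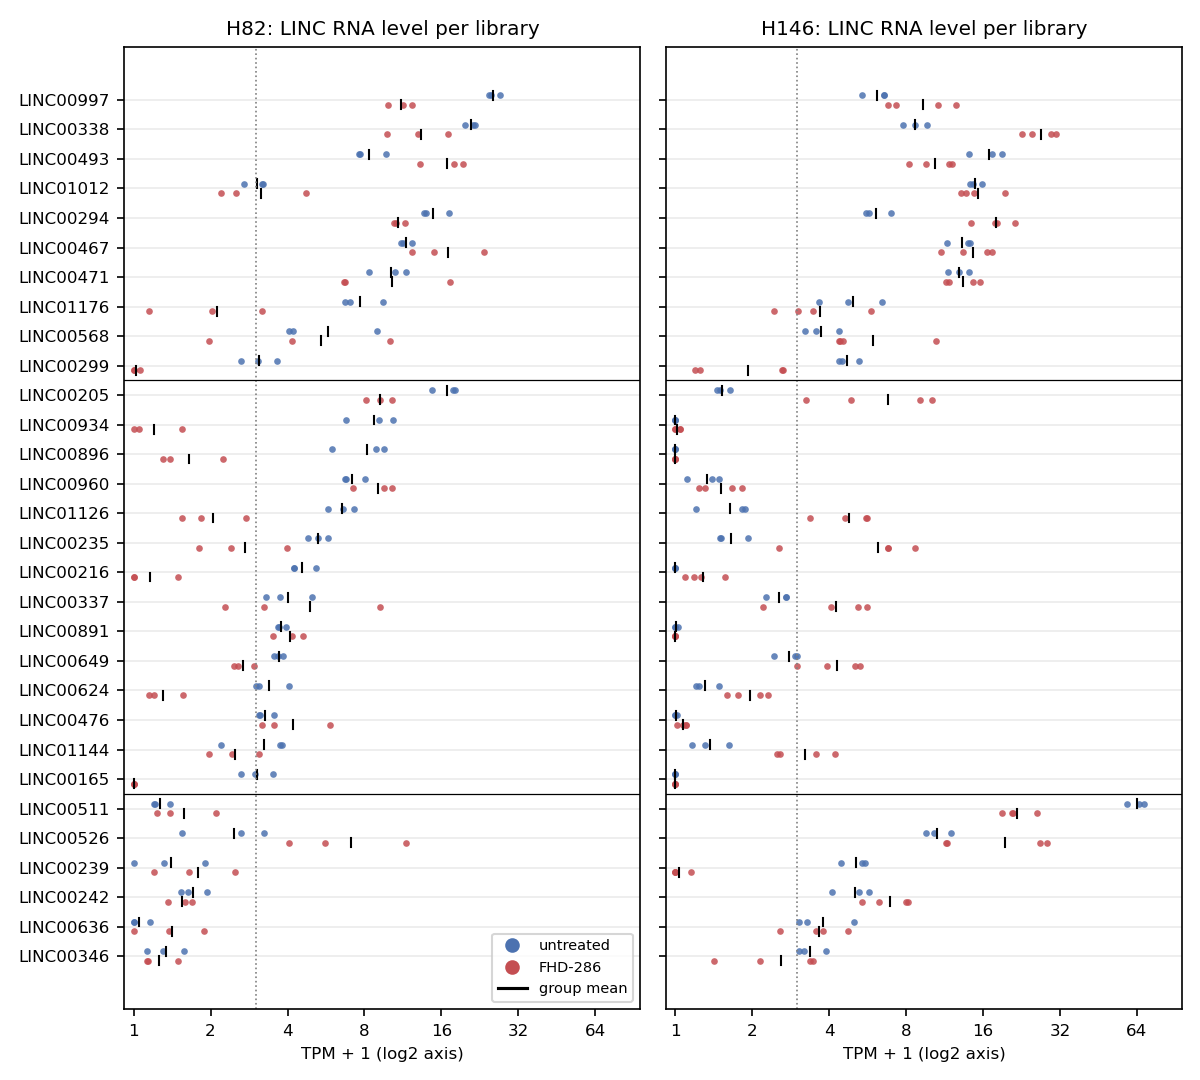
Level of each of the 30 LINC RNAs in every library of H82 (left) and H146 (right), as TPM + 1 on a log2 axis. Points are libraries (untreated in blue, FHD-286 in red), black ticks are group means, the dotted line marks 2 TPM, and horizontal lines separate members that reached the level in both lines (top), in H82 alone (middle) and in H146 alone (bottom). In H82 the treated points of LINC00934, LINC00896 and LINC01126 lie left of the untreated ones, and in H146 those of LINC00205, LINC00235 and LINC01126 lie right of them.

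Many LINC RNAs of H82 were lower with FHD-286. Of the 30 members, 25 passed the filter on low values (1 TPM or more in 3 or more libraries of that line), 11 of them only through the untreated group and 1 only through the treated group. With limma on log2(TPM + 1), 12 were lower, 2 were higher and 11 were not past an adjusted p of 0.05. Of the 12 lower ones, 9 (LINC00165, LINC00216, LINC00235, LINC00299, LINC00624, LINC00896, LINC00934, LINC01126 and LINC01176) passed the filter only through the untreated group, and of the 2 higher ones LINC00526 passed only through the treated group. A gene that passes in this way has at least 1 library of the other group under 1 TPM, which leaves a call little room to go the other way. It does not force a call, since 2 members that passed only through the untreated group (LINC00568 and LINC01144) were not called. The values of the 10 called in this way are thus a description, given with their SE and without a p-value. The counts support nothing by themselves. The calls that both groups could reach were LINC00205, LINC00338 and LINC00997 (lower) and LINC00493 (higher). Among all 19770 genes tested in H82, 45.5% were lower and 13.1% were higher, and the members' share of 48% lower was near that background. Their median log2 fold change was -0.47, beside -0.56 for all genes. Of the 25 tested members, the libraries of the groups did not overlap for 14 with lower and 2 with higher treated levels, against 51.4% and 16.4% of all genes tested. The split depended on the scaling between libraries. Scaled by the median of ratios, 9 members were lower and 4 higher (32.9% and 24.2% of all genes), and after quantile normalization 6 were lower and 8 higher (24.6% and 26.6%).

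Of the 12 lower in H82, LINC00934, LINC00896, LINC00216, LINC00165, LINC00997 and LINC01126 were lower under both of those scalings too. LINC00934 went from 8.13, 9.37 and 5.76 TPM to 0.552, 0 and 0.0536 TPM, a log2 fold change of -2.87 (SE 0.27). No treated library of H82 came near the lowest untreated one, and the gene was at 0.045 TPM or less in H146. LINC00896 was at 8.56, 5 and 7.89 TPM without treatment and at 1.24, 0.391 and 0.3 TPM with it (-2.33, SE 0.30), and it was listed at 0 in all 7 H146 libraries. LINC00216 was at 3.24, 3.22 and 4.18 TPM and then at 0, 0.493 and 0 TPM (-1.99, SE 0.24). In H146 LINC00216 was listed at 0 without treatment and at 0.0976 to 0.567 TPM with it. LINC00165 was at 1.63, 2.52 and 1.99 TPM without treatment and listed at 0 in all treated libraries of H82 and in every H146 library.

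LINC00997, the highest LINC RNA of untreated H82, went from 23.5, 23.9 and 26.2 TPM to 8.85, 10.3 and 11.2 TPM, so that the treated mean was 0.414 of the untreated one (-1.20, SE 0.15, limma adjusted p = 0.000808). Every treated library was below every untreated one. LINC01176 was at 8.44, 5.71 and 6.01 TPM and then at 0.146, 1.02 and 2.18 TPM (-1.97, SE 0.38). LINC00624, which runs opposite to CHD1L, was at 2.1, 2 and 3.05 TPM and then at 0.558, 0.15 and 0.206 TPM (-1.38, SE 0.22). Treated and untreated libraries were separate for both of these as well, but quantile normalization reduced the differences to -0.94 and -0.24.

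Only LINC00493 and LINC00526 were higher in treated H82 with the TPM as deposited. LINC00493, now named SMIM26 and annotated as coding for a small mitochondrial protein, was at 6.64, 8.74 and 6.71 TPM without and at 17, 18.5 and 12.2 TPM with FHD-286 (1.0, SE 0.21, limma adjusted p = 0.00598). LINC00526 was at 2.25, 0.553 and 1.64 TPM and then at 10.6, 4.59 and 3.06 TPM (1.44, SE 0.45). All 3 treated libraries were above the untreated ones, with treated replicate 1 the highest. The call of LINC00526 was lost in 4 of 13 alternatives (with no filter, and without untreated replicate 2 or 3 or treated replicate 2).

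In H146 members were called in both directions. There 22 members passed the filter, 2 only through the untreated and 4 only through the treated group, and 4 were lower, 6 were higher and 12 were not past the threshold. Of the 6 higher ones, 4 (LINC00205, LINC00235, LINC01126 and LINC01144) passed only through the treated group and 2 of the 4 lower ones (LINC00239 and LINC00299) only through the untreated group, so these 6 are again described without a p-value. LINC00294 and LINC00338 (higher) and LINC00493 and LINC00511 (lower) passed in both groups. All 19585 genes tested gave 15.5% lower and 32.5% higher, beside 18.2% and 27.3% of the members. The median log2 fold change was 0.50 for the members and 0.25 for all genes. Treated libraries lay wholly below the untreated ones for 4 of 30 members, all of them tested, and wholly above for 10. Of those 10, LINC00216, LINC00476 and LINC00624 were not tested in H146. Among all genes tested the shares were 17.3% and 35.7%. Both other scalings gave 4 lower and 6 higher members, the same 10 genes, although among all genes the split moved to 25.1% lower and 21.3% higher with the median of ratios and to 20.8% and 23.7% with quantile normalization.

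LINC00511, the leading transcript of untreated H146, fell from 64.2, 67.1 and 57.7 TPM to 19.7, 25.1, 18.1 and 20.1 TPM, a treated mean of 0.329 of the untreated one (log2 fold change -1.57, SE 0.14, limma adjusted p = 9.38e-05). The highest treated library was below the lowest untreated one, and LINC00511 was the second highest member of treated H146 by mean. LINC00239 fell from 4.38, 3.45 and 4.51 TPM to 0 in 3 libraries and 0.157 TPM in replicate 4 (-2.30, SE 0.17). LINC00299, a locus disrupted in some neurodevelopmental disorders, fell from 4.26, 3.39 and 3.5 TPM to 0.249, 0.193, 1.63 and 1.65 TPM (-1.39, SE 0.33). Its treated libraries formed a low pair, replicates 1 and 2, and a less low pair, replicates 3 and 4. LINC00299 was also the 1 member called lower in both lines, since in H82 it went from 2.65, 2.05 and 1.62 TPM to 0, 0 and 0.0577 TPM (-1.60, SE 0.20), although the H82 call was lost with quantile normalization.

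The 6 LINC RNAs higher in treated H146 included some of the larger folds of the whole set. LINC00205 was at 0.494, 0.642 and 0.458 TPM without and at 3.86, 2.26, 9.11 and 8.09 TPM with FHD-286, an 11-fold higher mean (2.01, SE 0.38). LINC00235 was at 0.514, 0.937 and 0.504 TPM and then at 7.66, 1.56, 5.81 and 5.82 TPM, with an 8.0-fold higher mean (1.79, SE 0.39). In both, treated replicate 2 was the lowest treated library and still above every untreated one. LINC01126 rose from 0.821, 0.874 and 0.212 TPM to 4.61, 3.62, 4.63 and 2.37 TPM (1.55, SE 0.25). LINC00294 rose from 4.58, 5.98 and 4.73 TPM to 20.3, 13.4, 16.8 and 17.2 TPM (1.55, SE 0.17, limma adjusted p = 0.000289). LINC00338, also named SNHG20 and a host gene of small RNAs, rose from 7.65, 8.65 and 6.8 TPM to 23.8, 28.6, 29.9 and 21.7 TPM (1.63, SE 0.16, limma adjusted p = 0.000148). It was the highest member of treated H146 by mean. LINC01144 rose from 0.621, 0.168 and 0.306 TPM to 3.21, 2.55, 1.51 and 1.58 TPM (1.21, SE 0.24). None of these 6 groups overlapped.

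**Figure D2:**
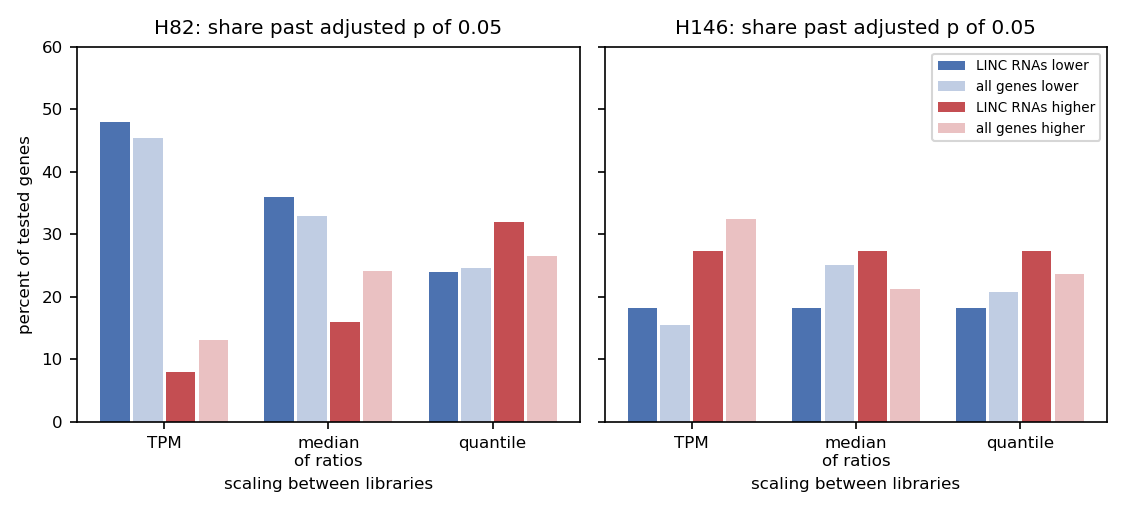
Percent of tested genes lower (blue) and higher (red) with FHD-286 at a limma adjusted p under 0.05 in H82 (left) and H146 (right), for the LINC RNAs (dark bars) and all genes (light bars), with the TPM as deposited and after 2 other scalings between libraries. In H82 the lower share of the LINC RNAs goes from 48% with the TPM to 24.0% after quantile normalization beside 45.5% and 24.6% of all genes, while in H146 the LINC RNA shares stay at 18.2% and 27.3%.

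Several LINC RNAs moved in opposite directions in the 2 lines (the plot of the response in H82 against that in H146). LINC00205, LINC00235, LINC00338 and LINC01126 were lower in treated H82 and higher in treated H146, and LINC00493 was higher in H82 and lower in H146. Among all 15679 genes tested in both lines, 13.2% were called lower in H82 and higher in H146. The difference of the responses (H82 minus H146) was tested as an interaction in 1 fit of all 13 libraries. Of the 30 members, 14 had a lower and 3 a higher response in H82 (46.7% and 10%), beside 46.0% and 13.3% of all 24374 genes tested. The median of ratios gave 12 and 4 members and quantile normalization 11 and 10, against 30.8% and 25.5%, and 25.0% and 25.4%, of all genes. LINC00338 and LINC00493, which passed the filter through both groups in both lines, kept a difference past the threshold in all 20 alternatives run. Differences that rest on a group chosen by the filter are given without a p-value. They are those of LINC00205, LINC00235, LINC01126, LINC01144 and LINC01176. The same holds for LINC00165, LINC00216, LINC00239, LINC00624, LINC00896 and LINC00934, which were tested in 1 line alone.

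LINC01126 had a difference of -3.27 (SE 0.37), the largest of the members at a pseudocount of 1. With a pseudocount of 0.1 it was -4.97, and LINC00216 (-6.11), LINC00239 (6.08) and LINC00934 (-5.42) had larger ones. In H82 it was at 4.78, 6.3 and 5.6 TPM without and at 1.74, 0.843 and 0.542 TPM with FHD-286 (-1.72, SE 0.26), with no overlap between the groups in either line. LINC00205 gave -2.89 (SE 0.47) and was at 17.1, 13.7 and 16.7 TPM and then 9.25, 8.18 and 7.1 TPM in H82 (-0.88, SE 0.18, limma adjusted p = 0.00481). LINC00235 gave -2.81 (SE 0.55), with 4.77, 3.8 and 4.27 TPM and then 2.97, 0.801 and 1.42 TPM in H82 (-1.03, SE 0.31). The H82 libraries did not overlap for any of these 3. LINC00338 gave -2.32 (SE 0.27, limma adjusted p = 2.08e-05), with 20.5, 20.3 and 18.8 TPM and then 16, 8.81 and 12 TPM in H82 (-0.69, SE 0.22, limma adjusted p = 0.0313).

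The H82 calls of this group were not equally firm. Under the median of ratios, LINC00205 (-0.42, adjusted p = 0.0917), LINC00235 (-0.67, adjusted p = 0.133) and LINC00338 (-0.23, adjusted p = 0.439) were no longer past the threshold in H82, while LINC01126 was. LINC00235 and LINC00338 each lost the H82 call in 8 of 13 alternatives (both scalings, no filter, each untreated library left out, and treated replicate 2 or 3 left out), and LINC00205 lost it under both scalings. LINC00493 had a difference of 1.70 (SE 0.28, limma adjusted p = 0.000271). Its H146 levels went from 16.3, 13.1 and 18 TPM to 7.2, 11.1, 10.7 and 8.57 TPM (-0.70, SE 0.19, limma adjusted p = 0.015), with all 4 treated libraries below the untreated ones, and the H146 call was lost without untreated replicate 1 or 3 (adjusted p = 0.0594 and 0.0651) and with the replicate block. For this gene a read-through transcript lies on the same strand, so its reads may be shared.

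**Figure D3:**
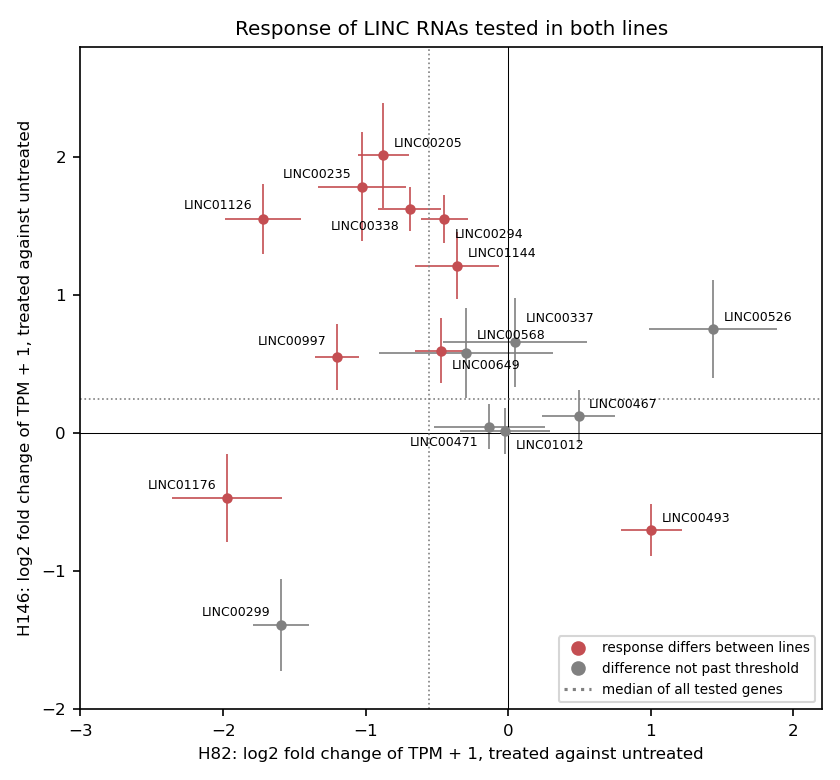
Log2 fold change of TPM + 1 (treated against untreated) in H82 (x axis) and H146 (y axis) for the LINC RNAs tested in both lines, with bars of 1 SE. Red points had an interaction of line and treatment past a limma adjusted p of 0.05, grey points did not, and dotted lines mark the median of all genes tested (-0.56 in H82 and 0.25 in H146). LINC01126, LINC00235, LINC00205 and LINC00338 lie at the upper left, LINC00493 at the lower right and LINC00299 at the lower left.

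LINC00294 and LINC00997 were called in only 1 line each, and their responses differed between the lines. LINC00294 was at 12.9, 16.1 and 12.7 TPM and then 10.5, 9.61 and 9.45 TPM in H82 (-0.45, SE 0.17, limma adjusted p = 0.0506), and its difference of responses was -2.0 (SE 0.23, limma adjusted p = 2.11e-05). Its H82 sign turned under the median of ratios (0.0041) and quantile normalization (0.14), whereas the difference between the lines stayed past the threshold in all 20 alternatives. In H146 LINC00997 was at 5.58, 5.58 and 4.39 TPM and then 9.67, 11.5, 5.8 and 6.32 TPM (0.55, SE 0.24, limma adjusted p = 0.0893), and its difference was -1.75 (SE 0.30, limma adjusted p = 0.000358). LINC01144 gave a difference of -1.57 (SE 0.38) that quantile normalization reduced to -0.30. LINC01176 gave -1.50 (SE 0.53), a difference whose call was lost in 6 of 20 alternatives, at -1.0 with the median of ratios and -0.42 with quantile normalization among them. At -0.47 in H146 (SE 0.32, limma adjusted p = 0.255), LINC01176 was not called there.

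Some abundant LINC RNAs showed no difference past the threshold. LINC01012 was at 14.9, 13.3 and 13.6 TPM in untreated and 12.2, 18.5, 12.8 and 13.7 TPM in treated H146, a log2 fold change of 0.02 with a 95% interval of -0.36 to 0.40. In H82 it was at 1.71 to 2.2 TPM and then at 3.73, 1.51 and 1.21 TPM. LINC00471 was at 10.6 to 13.1 TPM and then 10.5 to 14.6 TPM in H146 (0.05, interval -0.33 to 0.42), and in H82 at 7.35 to 10.6 TPM and then at 16.2, 5.74 and 5.67 TPM. The H82 interval of LINC00471 was wide, from -1.05 to 0.79, with treated replicate 1 above and the other treated libraries below every untreated one. LINC00467 was at 10.1 to 11.3 TPM and then 22.6, 11.2 and 14 TPM in H82 (0.49, SE 0.26, limma adjusted p = 0.138), a value that the median of ratios took to 0.95 (adjusted p = 0.0231), and its H146 value was 0.12 (SE 0.19, limma adjusted p = 0.622).

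In H146 the 2 pairs of treated libraries seen for LINC00299 recurred. LINC00526 was at 8.54, 11 and 9.31 TPM without treatment and at 27.5, 25.6, 10.5 and 10.6 TPM with it (0.75, SE 0.36, limma adjusted p = 0.111). Replicates 1 and 2 were high and replicates 3 and 4 lay within the untreated range. Over all genes, replicates 3 and 4 had the closest agreement among treated H146 libraries (r = 0.987), and replicate 2 was the farthest from them (0.933 and 0.938). Replicates 1 and 2 did not form a pair over all genes. Replicate 1 gave r = 0.969 with replicate 2, 0.968 with replicate 3 and 0.965 with replicate 4. LINC00997 and LINC01144 were likewise higher in replicates 1 and 2, whereas LINC00205 was higher in replicates 3 and 4. No label separates these libraries, and what sets them apart was not tested. In H82 a similar point holds for treated replicate 1, where the summed level of the members was 164 TPM, near the 169 to 175 TPM of the untreated libraries, against 103 TPM in both other treated libraries.

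The remaining members are given by their ranges. LINC00649, which lies opposite ATP5PO, went from 2.56 to 2.84 TPM down to 1.48 to 1.97 TPM in H82 (-0.47, limma adjusted p = 0.0635), and it went from 1.44 to 2 TPM up to 2 to 4.27 TPM in H146 (0.60, limma adjusted p = 0.0628), and only the difference between the lines, -1.07 (SE 0.29, limma adjusted p = 0.00778), was past the threshold. With quantile normalization that difference was 0.27 (adjusted p = 0.426). LINC00337, the divergent transcript of ICMT, was at 2.31 to 4 TPM and then 1.29 to 8.22 TPM in H82, and at 1.26 to 1.71 and 1.2 to 4.63 TPM in H146. LINC00568, also named FALEC for its focal amplification in epithelial cancers, was at 3.05 to 7.96 and 0.981 to 9.08 TPM in H82 and at 2.22 to 3.39 and 3.39 to 9.51 TPM in H146. Neither was called in either line. LINC00476 (2.09 to 2.56 and 2.18 to 4.87 TPM), LINC00891 (2.69 to 2.96 and 2.5 to 3.6 TPM) and LINC00960 (5.73 to 7.01 and 6.24 to 9.24 TPM) were tested in H82 alone and not called. LINC00242 (3.09 to 4.75 and 4.36 to 7.14 TPM), LINC00346 (2.06 to 2.89 and 0.425 to 2.45 TPM) and LINC00636 (2.06 to 4.01 and 1.58 to 3.74 TPM) were tested in H146 alone and not called. Apart from LINC00476, these genes (8 in all) fall outside the rule for named genes and are listed to account for every member.

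The groups of members by line of origin can be set beside genes chosen in the same way. Of the 14 LINC RNAs that reached 2 TPM in untreated H82 only, 6 passed the filter in H146, and the 4 of these that were higher with FHD-286 are the 4 that passed only through the treated group, so the filter fixed their direction. Among all genes chosen in that way, to which the same filter applies, 45.8% were higher and 1.43% lower in H146. Among the 24 members at 2 TPM or more in untreated H82, 12 were lower and 1 was higher there, beside 48.1% and 11.3% of all such genes. The 16 members at that level in untreated H146 gave 4 lower and 2 higher, beside 18.8% and 29.2%. None of these counts was tested.

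The 30 loci lie on 17 chromosomes of GRCh38. All were found in GENCODE release 44, 6 of them under a newer symbol, with 566 to 27664 exonic bases (median 2976). In 8 cases the locus overlaps a coding gene on the opposite strand and in 4 a coding gene on the same strand, and since the strand setting of the counting is not given in the sources used here, reads of such pairs cannot be told apart. LINC00511 (ENSG00000227036.10) runs over chromosome 17, 72290091 to 72640472, on the minus strand, with 107 annotated transcripts. LINC00934 lies on chromosome 12, 119283825 to 119303380 (minus strand), LINC00997 on chromosome 7, 32760279 to 32762924 (plus strand), LINC00896 on chromosome 22, 20206380 to 20208524 (plus strand), and LINC00299 on chromosome 2, 7988683 to 8488284 (minus strand), each annotated as a long noncoding RNA. A microRNA hairpin, MIR6516, lies inside LINC00338 (chromosome 17, 77086716 to 77099902, plus strand).

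Of the members, 25 had the start of a coding gene within 100 kb, and 3 of these pairs were head to head, with starts within 5 kb on opposite strands pointing apart. All 3 LINC RNAs of these pairs were lower in H82 and higher in H146, beside 13.2% of the 15679 genes tested in both lines, but the filter fixed the H146 direction of all 3 and the H82 direction of LINC00235 and LINC01126, and the H82 calls of LINC00205 and LINC00235 were lost under both other scalings. LINC00205 (chromosome 21, 45288035 to 45297806, plus strand) starts 137 bp from POFUT2, which adds fucose to thrombospondin repeats. LINC00235 (chromosome 16, 525155 to 527407, minus strand) starts 305 bp from CAPN15, a calpain family protease. LINC01126 (chromosome 2, 43227210 to 43228855, plus strand) starts 604 bp from ZFP36L2, an RNA-binding protein that destabilizes messages with AU-rich elements. Their promoters, 250 bases before to 50 after the RefSeq start (RefSeq, GRCh38.p14), are printed as the start regions of these pairs (the starts of CAPN15 and ZFP36L2 lie beyond the windows). That of LINC00511, the highest member in untreated H146, is printed too. Capitals mark an E-box, CANNTG, the site of basic helix-loop-helix factors such as NEUROD1.
LINC00205, chr21:45287802-45288101, plus strand: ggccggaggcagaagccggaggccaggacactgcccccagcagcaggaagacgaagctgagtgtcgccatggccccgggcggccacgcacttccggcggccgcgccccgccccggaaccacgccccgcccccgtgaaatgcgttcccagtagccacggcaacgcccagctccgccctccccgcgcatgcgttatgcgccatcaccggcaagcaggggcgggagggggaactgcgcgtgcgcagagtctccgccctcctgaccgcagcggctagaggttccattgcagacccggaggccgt
LINC00235, chr16:527358-527657, minus strand: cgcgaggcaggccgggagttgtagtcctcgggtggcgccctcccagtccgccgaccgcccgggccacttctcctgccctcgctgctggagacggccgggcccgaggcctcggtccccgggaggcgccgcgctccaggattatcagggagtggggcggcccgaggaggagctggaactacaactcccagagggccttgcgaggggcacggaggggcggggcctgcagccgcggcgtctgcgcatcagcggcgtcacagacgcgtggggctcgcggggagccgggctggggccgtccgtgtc
LINC01126, chr2:43226961-43227260, plus strand: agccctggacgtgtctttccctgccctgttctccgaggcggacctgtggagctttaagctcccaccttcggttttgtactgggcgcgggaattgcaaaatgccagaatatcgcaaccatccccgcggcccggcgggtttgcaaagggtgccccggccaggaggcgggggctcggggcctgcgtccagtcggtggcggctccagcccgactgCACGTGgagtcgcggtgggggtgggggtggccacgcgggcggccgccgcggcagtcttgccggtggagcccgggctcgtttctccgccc
LINC00511, chr17:72640423-72640722, minus strand: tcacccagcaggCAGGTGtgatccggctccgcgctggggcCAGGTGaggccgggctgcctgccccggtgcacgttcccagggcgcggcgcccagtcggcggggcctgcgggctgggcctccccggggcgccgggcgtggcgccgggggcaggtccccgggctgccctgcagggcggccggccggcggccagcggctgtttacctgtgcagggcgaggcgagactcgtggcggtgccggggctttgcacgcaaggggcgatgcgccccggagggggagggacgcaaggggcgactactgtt

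The window of LINC00205 thus holds the start of POFUT2, and its GC content was 72.3%, beside 75.3% for LINC00235, 69.7% for LINC01126 and 78% for LINC00511. Across the 22 members with a RefSeq promoter the median GC content was 64.3% (37.3% to 78%), against 58.3% over all 27305 promoters. E-boxes were searched on both strands, which for these palindromic patterns are 1 search except for CAGATG. The general pattern CANNTG, which includes the other 2 patterns, was found in 14 of the 22 (63.6%, against 68.9% of all promoters), CAGCTG in 3 (13.6% against 17.7%) and CAGATG in 1 (4.55% against 14.8%). No E-box lies in the windows of LINC00205 and LINC00235, 1 lies in that of LINC01126 and 2 in that of LINC00511. A match says only that these letters are present.

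The coding partners did not always move with the LINC RNA (the plot of each LINC RNA and its nearest coding gene). POFUT2 was lower in treated H82 (log2 fold change -0.63, limma adjusted p = 0.0176), as LINC00205 was, but this call was lost in 6 of 13 alternatives, with -0.15 under the median of ratios (adjusted p = 0.501) and -0.51 without treated replicate 2 (adjusted p = 0.0577). In H146, where LINC00205 was higher, its mean was 28.3 TPM without and 29.8 TPM with treatment (0.01, limma adjusted p = 0.979). CAPN15 rose in H146 with LINC00235 (0.92, limma adjusted p = 0.0035), and its -1.22 in H82 missed the threshold (limma adjusted p = 0.093). ZFP36L2 went from a mean of 11.2 to 30.7 TPM in H146 (1.37, limma adjusted p = 0.000453) beside LINC01126, whereas in H82 it was at 50.4 and 41.8 TPM (-0.38, limma adjusted p = 0.387). In H82, therefore, LINC01126 fell without a called change of ZFP36L2.

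Of the 6 LINC RNAs higher in treated H146, the nearest coding gene was higher for 4, lower for 1 and not past the threshold for 1, where 32.5% of all genes tested were higher and 15.5% lower. TCP11L1, which lies on the same strand as LINC00294 and overlaps it, was higher with treatment in H146 (1.58, limma adjusted p = 0.000145) but lower in H82 (-1.03, limma adjusted p = 0.00233), like LINC00294 by sign in both lines. ZSWIM5, opposite LINC01144, was also higher in H146 (0.81) and lower in H82 (-1.04, limma adjusted p = 0.00377). SEC14L1, whose annotated span overlaps LINC00338, fell in H146 (-0.63, limma adjusted p = 0.0118) while LINC00338 rose. For the 12 LINC RNAs lower in H82, 10 had a coding neighbor, of which 2 were lower, 2 higher, 4 not past the threshold, 1 not tested and 1 not listed in the table, where 45.5% of all genes tested were lower and 13.1% higher. As for the members, no p-value is given for a neighbor with 1 group under the filter's level. The higher ones were ARMH4, opposite LINC00216 (listed under its older symbol C14orf37, a mean of 0.361 and then 3.78 TPM, 1.77), and SLX9, a ribosome assembly factor near LINC00165 (listed as FAM207A, 0.80, limma adjusted p = 0.0148). Without treated replicate 2 the value of FAM207A was 0.69 and its adjusted p 0.0513, and its call was lost in 3 of 13 alternatives. CCDC188, 55325 bp from LINC00896, was lower in both lines (-2.66 in H82, and -1.63 for H146, limma adjusted p = 0.000717), and in H146 LINC00896 itself was listed at 0.

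**Figure D4:**
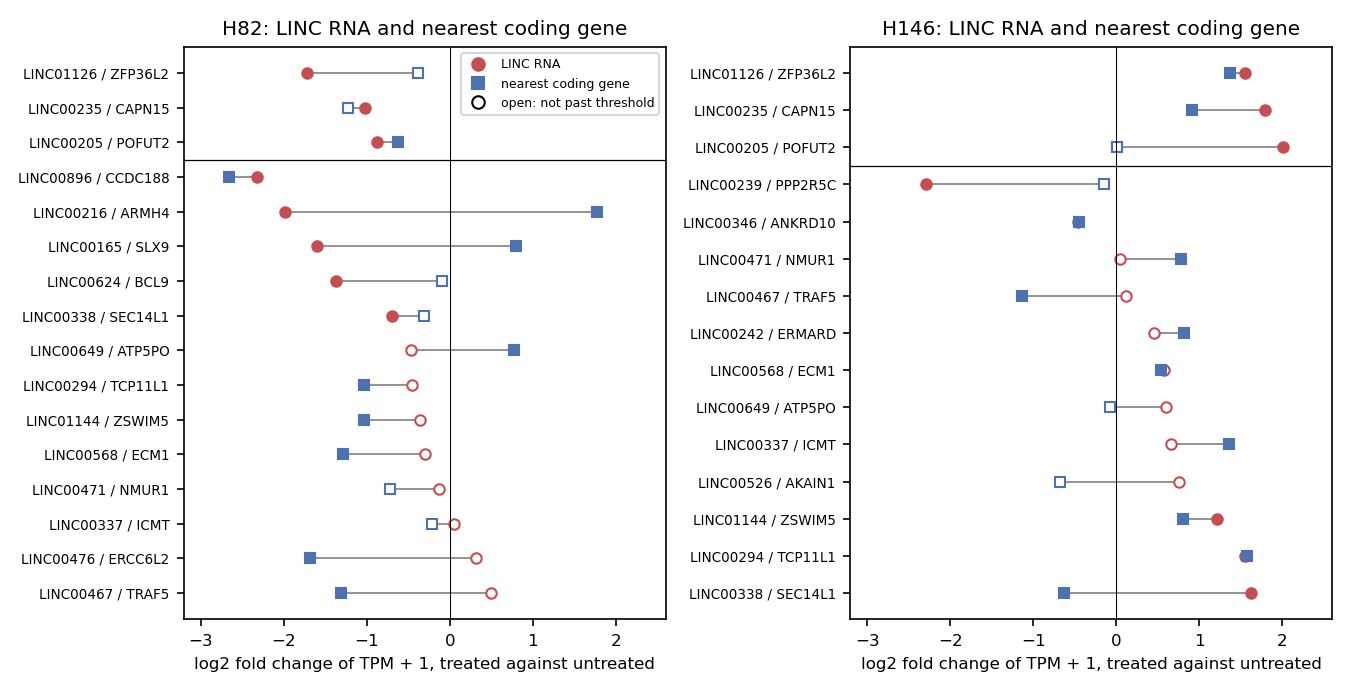
Log2 fold change of TPM + 1 (treated against untreated) of each LINC RNA (red circles) and of the coding gene with the nearest start within 100 kb (blue squares), for pairs tested in H82 (left) and H146 (right). Filled symbols are past a limma adjusted p of 0.05, open ones are not, and head-to-head pairs stand above the line. In H146 LINC01126 and ZFP36L2 lie close together (1.55 and 1.37) while LINC00205 and POFUT2 lie apart (2.01 and 0.01).

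Other noncoding families at the same untreated level are given for comparison, without a test between families, and are to be read against 45.5% lower and 13.1% higher among all genes in H82 and 15.5% and 32.5% in H146. Of 82 antisense RNAs, 69 were tested in H82 with 38 lower and 7 higher, and 64 in H146 with 10 lower and 23 higher. The 14 host genes of small nucleolar RNAs named SNHG had 4 lower and 0 higher in H82, by limma, with 5 at an unadjusted p under 0.05, and 6 lower and 2 higher in H146. LINC00338 is a snoRNA host by its newer name, and its rise in H146 stands beside the 6 of that family that were lower. Of 8 microRNA host genes, 4 were lower in H82, and of 6 tested in H146 3 were higher. NORAD, an abundant cytoplasmic long noncoding RNA that was once listed as a LINC gene, was at a mean of 329 and 129 TPM in H82 (-1.36, limma adjusted p = 0.00115), while H146 had 153 and 376 TPM (1.30, limma adjusted p = 0.000312), the same pair of directions as LINC01126.

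Signs of RNA composition moved with the treatment in H82 and, in part, in H146. The nuclear RNAs MALAT1, NEAT1 and KCNQ1OT1 summed to 709 to 849 TPM in untreated and 93.0 to 179 TPM in treated H82. The sum of 11 RNAs that are short or lack a poly(A) tail went from 2036 to 2604 TPM to 1148 to 1662 TPM. RN7SL1 and RN7SL2 made up most of it (means of 805 and 1304 TPM in untreated H82). These, RPPH1, HIST1H4C and HIST1H1C were called lower in H82. RMRP, HIST1H2AC, HIST1H3B, HIST1H1E and HIST1H4B were not called there. The mitochondrial share of all TPM was 22.1% to 24.1% in untreated H82 and 12.3% to 14.9% in treated H82. In H146 the nuclear RNAs were at 353 to 511 TPM and then 173 to 764 TPM, and the short or non-polyadenylated RNAs at 2885 to 5195 TPM and then 531 to 2388 TPM. Of these 11, RN7SL1, RN7SL2, HIST1H4C and HIST1H4B were called lower in H146, and HIST1H1C and HIST1H2AC higher. The mitochondrial share in H146 was 7.56% to 8.86% without and 3.82% to 11.4% with treatment. The part of these shifts in the levels of the LINC RNAs was not tested.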

How the data were processed

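RNA of 13 libraries of H82 and H146 cells was analysed. Per the methods and the submitters' processing notes, the authors trimmed reads with Trim Galore 0.4.4, mapped them to hg38 and counted them with STAR and GENCODE release 28, and used DESeq2 for their comparisons. The deposited values used here are TPM, made by the authors, in 1 table per line with 56831 genes, and each column sums to 1000000. How gene length was taken and whether counting used strand are not given in the sources used here. TPM keep no depth, so a count model was not run, although the study used one.

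Each line was fitted in R 4.3.3 with limma 3.58.1 (lmFit, eBayes with trend) on log2(TPM + 1). Genes entered the fit when 3 or more of its libraries held 1 TPM or more. Tests were two-sided, p-values were adjusted by Benjamini-Hochberg across every gene of the fit, and 0.05 was the threshold. Fold changes are on that scale, with a pseudocount of 1, which understates changes of low genes. The interaction of line and treatment was fitted over all 13 libraries. In simulated data, sets of 100 genes per line were given a log2 fold change of 1 or 2 in size. At a size of 1, 28% were recovered in H82 and 46% in H146, and at a size of 2, 67% and 83%. Unchanged genes called numbered 6 among 19101 genes in H82 and 13 among 17824 in H146, and 0 changed genes had the wrong sign. The simulated data held a far smaller share of changed genes than was called in the real data. There 45.5% of genes were lower and 13.1% higher in H82, and 15.5% and 32.5% in H146. Because the adjustment is stricter when few genes change, the simulated rates do not carry over to the real fits. A gene that was not called may still have changed. Python 3.11.15, numpy 2.4.6, pandas 2.3.3 and matplotlib 3.10.9 made the tables and plots.

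The members and lists were chosen with earlier results of these data known. Genes named were the 10 highest untreated members per line, the 8 largest non-overlapping calls per direction and line, the 5 strongest shared or opposite calls and interactions per direction, a short list of known LINC genes, the 3 on each side of the level threshold, and the nearest coding gene within 100 kb. Loci were taken from GENCODE release 44, of which 24 matched by symbol and 6 by a newer RefSeq symbol. Alternatives tried were no filter, a pseudocount of 0.1, a mean of at least 2 TPM, median of ratios, quantile normalization, eBayes without trend, the replicate number as a block, an adjusted p under 0.1, a log2 fold change of at least 1, and each library left out. The accessibility data of the study were not used here.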

Additional observations from a re-analysis of the deposited data

Results flagged for a closer look

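The difference between the responses of the lines (H82 minus H146, log2 scale, limma interaction) was past an adjusted p of 0.05 for 17 of 30 members (14 negative, 46.7%, and 3 positive, 10%), beside 46.0% negative and 13.3% positive among all genes tested. It was negative for LINC01126 (-3.27), LINC00934 (-2.90), LINC00205 (-2.89), LINC00235 (-2.81), LINC00216 (-2.33), LINC00896 (-2.33), LINC00338 (-2.32), LINC00294 (-2.0), LINC00624 (-1.95), LINC00997 (-1.75), LINC00165 (-1.60), LINC01144 (-1.57), LINC01176 (-1.50) and LINC00649 (-1.07), and positive for LINC00239 (2.62), LINC00511 (1.84) and LINC00493 (1.70). LINC00165 and LINC00896 were listed at 0 in all 7 H146 libraries, so their values are those of H82 alone and depend on the pseudocount, and LINC00934 was at 0.045 TPM or less in H146. LINC00511 and LINC00239 were below 2 TPM in every H82 library. A group chosen by the filter underlies the differences of LINC00165, LINC00205, LINC00216, LINC00235, LINC00239, LINC00624, LINC00896, LINC00934, LINC01126, LINC01144 and LINC01176. These differences are a description, and the counts support nothing by themselves.

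In the group of 4 treated H146 libraries a single library stood far from the other 3 for 2 members. LINC00239 was at 0.157 TPM in replicate 4 and listed at 0 in the others, and LINC00568 was at 9.51 TPM in replicate 1 and at 3.39 to 3.54 TPM in the others. For normally spread values, chance gives such a gap in about 1 of 20 groups. That rate does not apply to LINC00239, where any value above 0 would stand apart from libraries listed at 0.

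Outside the members, 4 LINC genes were below 2 TPM without treatment in both lines but had a treated mean above that level. Their treated libraries did not overlap the untreated ones of the line. They were picked by these traits. Among all genes tested, treated libraries lay wholly above the untreated ones for 35.7% in H146 and 16.4% in H82. LINC00921 reached a mean of 2.53 TPM in treated H146, LINC00461, the host of a miR-9 precursor, 2.42 TPM, and LINC00271 2.28 TPM, and LINC00364 reached 2.04 TPM in treated H82, where replicate 2 was at 4.32 TPM and the others at 0.978 and 0.835 TPM. LINC00654 (a mean of 2.0 TPM in treated H146) and LINC00173 (in treated H82) also reached that mean, but their treated and untreated libraries overlapped.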

How the results depend on the processing

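The H82 counts of 12 lower and 2 higher depended most on the scaling and the libraries. They were 9 and 4 with the median of ratios (9 of the 12 shared), 6 and 8 with quantile normalization (6 shared), and 10 and 1 with no filter. Leaving out 1 library gave 5 to 15 lower (5 without any 1 untreated library, when genes seen in the untreated group alone cannot pass the filter, and 15 without treated replicate 1) and 1 to 2 higher in H82, 2 to 5 lower (2 without untreated replicate 1 or 3) and 6 to 9 higher (9 without treated replicate 2) in H146, and 10 to 15 negative and 3 positive differences between the lines. Quantile normalization gave 10 positive differences, and a mean of at least 2 TPM gave 8 negative and 2 positive ones. Depth limits were not assessable from TPM.

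Of the named genes' values under alternatives, 985 kept direction and side of the threshold, 48 lost it, 15 gained it and 38 changed sign. Alternatives in which a gene no longer passed the filter are not in this tally. The H82 calls of LINC00165, LINC00216, LINC00299, LINC00624 and LINC00934 and the H146 call of LINC00239 were lost in this way without any 1 untreated library. In H82, signs changed under the median of ratios for LINC00294 (0.0041), LINC00471 (0.31), LINC01012 (0.31), ZFP36L2 (0.10), SEC14L1 (0.15) and BCL9 (0.37), and under quantile normalization for LINC00235 (0.014), LINC00294 (0.14), LINC00471 (0.65), LINC01012 (1.06), LINC01144 (0.74), LINC00649 (0.61), SEC14L1 (0.14) and BCL9 (0.25). In H146 they were, in that order of scalings, -0.18 and -0.14 for LINC00467, -0.25 and -0.21 for LINC00471, -0.28 and -0.23 for LINC01012, and -0.30 and -0.16 for POFUT2. The difference between lines of LINC00649 became 0.27 under quantile normalization. With 1 library left out, LINC00471 ranged from -0.59 to 0.10 in H82 and -0.031 to 0.12 in H146, LINC01012 from -0.36 to 0.19 and -0.10 to 0.083, ZFP36L2 from -0.60 to 0.058 and BCL9 from -0.26 to 0.14 in H82, and POFUT2 from -0.22 to 0.16 in H146. The cause of these changes was not tested.

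Samples with the same replicate number did not deviate together (correlations of -0.0378 to 0.027 in H82 and -0.111 to 0.0108 in H146), so the numbers do not pair libraries. The replicate block gave 12 lower and 2 higher members in H82, 3 and 7 in H146, and 13 and 3 for the difference between lines.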

Other observations

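Some LINC genes below the level of the members were also measured. Of the 110 LINC genes under 2 TPM without treatment in both lines, 7 passed the filter in H82, with 3 lower and 1 higher, and 10 passed in H146, with 2 lower and 3 higher, where all genes tested gave 45.5% lower and 13.1% higher in H82 and 15.5% and 32.5% in H146. LINC00921 showed the pair of directions seen for LINC01126, from 2.02, 1.26 and 1.41 TPM to 0.871, 0.0562 and 0.207 TPM in H82 (log2 fold change -0.93) and from 0.665, 0.700 and 0.672 TPM to 3.03, 1.38, 3.17 and 2.56 TPM in H146 (1.04). LINC00461 went from 0.109, 0.482 and 0.311 TPM to 3.61, 1.88, 2.29 and 1.90 TPM in H146 (1.38). Since these genes passed the filter through 1 group, no p-value is given. LINC00364 was at 0.948, 1.26 and 1.0 TPM in untreated H146 and listed at 0 in all 4 treated libraries, while in H82 it was at 0.314, 0 and 0 TPM and then at 0.978, 4.32 and 0.835 TPM. LINC00173 reached 15.7 TPM in treated replicate 1 of H82 alone, against 0.269 and 1.73 TPM in the other treated libraries (limma adjusted p = 0.33). LINC00921, LINC00461, LINC00364 and LINC00173 were chosen after their values were seen.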
